A study of Mus musculus with 12 samples.

Results

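Colon RNA of mice that lack ATF6a (ATF6aKO) was compared with colon RNA of wild-type (WT) mice on all 4 ATF6aKO arrays and all 4 WT arrays of a series of 12. The other 4 arrays came from mice that lack ATF6b (ATF6bKO) and are set beside the comparison. All mice were males of strain C57BL/6J. Of the 4 ATF6aKO samples, 2 came from untreated (UT) mice and 2 from mice given drinking water with 3% dextran sulfate sodium (DSS) for 3 days, which damages the lining of the colon. The ATF6bKO and WT samples have the same layout, 2 untreated and 2 with DSS. The sources used here give no ages, deleted parts of the genes, origin of the lines or stretch of colon. Whether replicates were different animals is not stated, and p-values then measure only how these samples vary, which may be a technical spread.

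WT treatment is uncertain: the titles of the WT samples put 2 in UT and 2 in DSS, and their treatment fields state the opposite. They are called "titled UT" and "titled DSS" here. The genotype difference was the mean of the 2 ATF6aKO group means minus the mean of the 2 WT group means, so its estimate, its error and its p do not depend on which reading holds.

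ATF6a and ATF6b are transcription factors that sit in the membrane of the endoplasmic reticulum (ER). When unfolded proteins accumulate in the ER, they move to the Golgi, are cut by proteases there, and the freed fragment enters the nucleus to switch on chaperone and degradation genes. ATF6a is the stronger activator of these genes. Other branches of the response run from the kinase PERK to ATF4, which switches on genes of amino acid supply, and from the nuclease IRE1 to XBP1. In the gut the pathway is best known from secretory cells, such as goblet cells, which fold large amounts of mucin.

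The WT arrays stood apart from the knockout arrays in ways that bear on every result below. Each genotype was on a slide of its own with its own scan number, and the WT slide carried version 1 of the array design whereas both knockout slides carried version 2. Genotype therefore cannot be told apart from slide, scan or design version. A level is the log2 processed signal of a probe minus the log2 75th percentile of its array, so 0 is a bright probe on that array. The 10 spike-in probes, which measure RNA added in the laboratory and none made by the mouse, differed widely: 8 of the 10 lay above every WT array on every ATF6aKO array. The level of spike-in (+)E1A_r60_a22 ran from 1.88 to 2.34 on ATF6aKO arrays, 1.6 to 2.09 on ATF6bKO arrays and -3.34 to -2.96 on WT arrays. The part of slide, scan and design version in the gene results was not tested. Over all genes the levels correlated at 0.974 to 0.992 among ATF6aKO arrays, at 0.942 to 0.99 among WT arrays, and at 0.894 to 0.964 between an ATF6aKO and a WT array. An ATF6aKO and an ATF6bKO array correlated at 0.955 to 0.984.

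**Figure D1:**
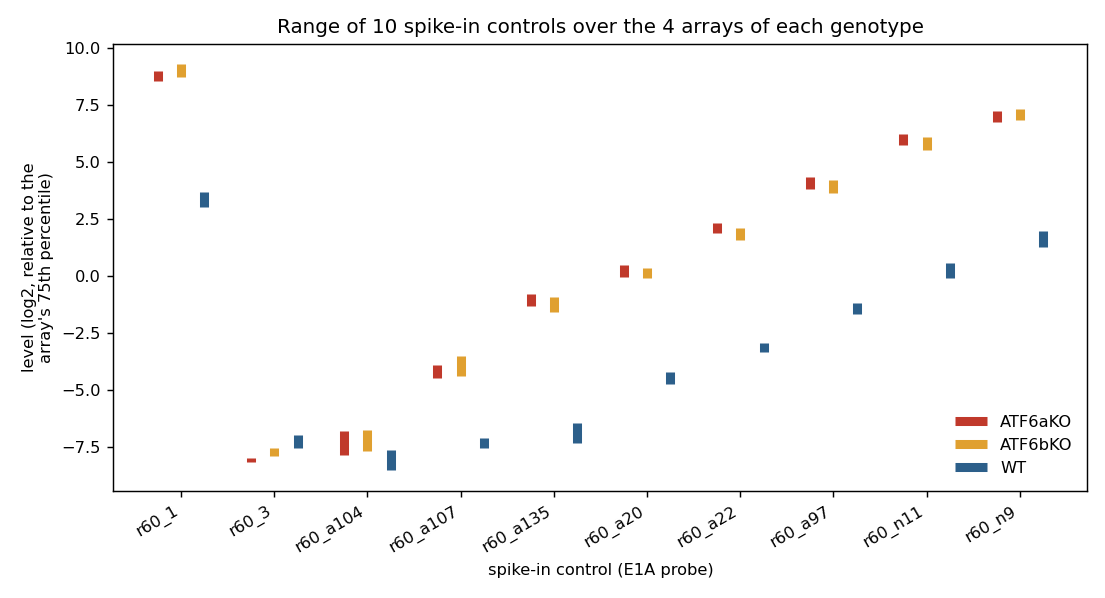
The plot shows the log2 level of each of the 10 spike-in probes, with a bar from the lowest to the highest of the 4 arrays of ATF6aKO, ATF6bKO and WT. The bars of ATF6aKO and ATF6bKO lie together, and for 8 probes the ATF6aKO bar lies above the WT bar with no overlap.

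The tissue carried the markers of colon in both genotypes. Aqp8, a water channel of surface colonocytes, had levels of 6.97, 7.64, 6.4 and 6.49 on ATF6aKO arrays (UT, UT, DSS, DSS, the order used throughout) and of 8.18, 7.43, 6.95 and 7.22 on WT arrays (titled UT, titled UT, titled DSS, titled DSS). Myh11, the myosin of smooth muscle, had levels of 4.65 to 5.13 on ATF6aKO arrays and 4.61 to 5.2 on WT arrays. Car1, Slc26a3 and Acta2 were also well above background on all 8 arrays, and Muc2 had no probe that could be named. Markers of other tissue that a dissection can hold passed rarely or in both directions. Of 9 adipocyte genes 0 passed, but their mean level ran from -0.35 to 1.89 on ATF6aKO arrays and from 0.28 to 0.75 on WT arrays. Adipoq, a fat cell gene, was well above background on all 8 arrays, at -0.65, 0.21, -1.86 and 2.15 on ATF6aKO arrays. Its WT levels were -0.4, 0.78, 0.13 and 0.11. Without ATF6aKO DSS replicate 1 the adipocyte median was 0.38, and without DSS replicate 2 it was -0.59. How much fat each sample held was not tested. Of 12 genes of squamous epithelium 2 were higher and 4 were lower (3 and 0 after normexp, an alternative background correction). In ATF6bKO against WT 5 of them were higher and 0 lower, with a median of 1.85. The keratin gene Krt5 had levels of -4.07, -4.03, -0.4 and 3.56 on ATF6bKO arrays. Its levels were -4.76 to -4.1 on ATF6aKO arrays and -3.75 to -3.35 on WT arrays. How much squamous epithelium each sample held was not tested.

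Atf6 itself was far lower in ATF6aKO than in WT colon, and Atf6b was not. Atf6 levels were -3.22, -3.04, -3.08 and -3.23 on ATF6aKO arrays, 0.74, 0.89, 1.14 and 1.22 on ATF6bKO arrays, and 0.93, 0.72, 0.6 and 0.85 on WT arrays. The ATF6aKO arrays lay below all others, with a log2 difference from WT of -3.92 (SE 0.14, adjusted p = 8.13e-05, limma over all genes). The difference from ATF6bKO, whose arrays share the knockout design version, was -4.14 (adjusted p = 2.8e-06). The other Atf6 probe gave -3.36, with levels of -4.07, -3.91, -3.55 and -3.73 on ATF6aKO arrays against -0.06, -0.37, -0.56 and -0.82 on WT arrays. Both probes stayed well above background on all 4 ATF6aKO arrays, so some signal remained at these probes. The sources used here do not place the probes relative to the deleted part, and the origin of the remaining signal was not tested. Atf6b, the relative that could take over shared functions, had levels of -0.01, -0.07, -0.14 and 0.08 on ATF6aKO arrays and of -1.1, -0.39, -0.18 and 0.16 on WT arrays. Its difference of 0.34 did not pass (SE 0.19, adjusted p = 0.187).

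Across the array, 10774 of 23244 genes and transcripts (46.4%) differed between ATF6aKO and WT colon at an adjusted p under 0.05. Of these, 4620 (19.9% of all tested) were higher in ATF6aKO and 6154 (26.5%) were lower, and 5005 differed by at least 1 log2 unit. The counts of gene lists below are read against these shares. All 4 ATF6aKO arrays lay above all 4 WT arrays for 2826 genes (12.2%) and below them for 4438 (19.1%), so a lack of overlap was common. The split of the called genes between directions depended on how the signals were scaled. With normexp background correction of the median signals, 5881 were higher and 3729 lower (61.2% of calls higher, against 42.9%), and the authors' value table gave 12127 higher and 1870 lower (86.6%). The median difference over all genes was -0.07 in the levels used here, 0.119 after normexp and 0.573 in the value table, so a small difference has a direction only relative to that shift. For ATF6bKO against the same WT arrays, 11760 genes passed (50.6%), with 24.4% higher and 26.2% lower. Between ATF6aKO and ATF6bKO, on arrays of the same design version but different slides, 1251 passed (5.38%), of which 271 (1.17% of all tested) were higher in ATF6aKO and 980 (4.22%) lower.

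Among the sensors and transcription factors of the unfolded protein response, Creb3l2 was higher in ATF6aKO, and the genes of IRE1, PERK, XBP1 and ATF4 did not pass. Of 18 genes tested, 3 were higher (Creb3l2, Creb3l1 and Mbtps1) and 4 lower (Atf6, Ddit3, Nfyb and Yy1), with a median difference of -0.05 (3 and 6 after normexp). Ern1, which encodes IRE1, differed by -0.45 (adjusted p = 0.0548), Eif2ak3, which encodes PERK, by -0.02 (adjusted p = 0.931), and Xbp1 by 0.11 (adjusted p = 0.728). Atf4 differed by -0.43 (adjusted p = 0.11). Ddit3, which encodes the ATF4 target CHOP, had levels of -0.43, -0.57, -1.17 and -1.16 on ATF6aKO arrays and -0.16, -0.14, -0.35 and -0.24 on WT arrays. It was lower in ATF6aKO (-0.61, SE 0.13, adjusted p = 0.0078), and the groups did not overlap, but the value was 0.05 in the value table and the call was lost when treatment was left out of the fit. Creb3l2, an ATF6 relative that is also freed by cleavage in the Golgi, was higher in ATF6aKO, with levels of -1.02, -0.87, -0.3 and -0.26 against -4.53, -3.42, -2.15 and -2.14 on WT arrays. Its difference was 2.45 (SE 0.24, adjusted p = 0.000672), and it was 2.05 in ATF6bKO against WT. Mbtps1, which encodes the site-1 protease that cuts ATF6, was higher by 0.71 (SE 0.17, adjusted p = 0.015).

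Of the ER chaperones and folding enzymes that ATF6 is known to switch on, most did not pass in ATF6aKO colon. Of 22 tested, 6 were higher, 1 was lower and 15 did not pass, against 19.9% and 26.5% over all genes, and the median difference was 0.13. After normexp 5 were higher and 4 lower, and 18 were higher and 0 lower in the value table. For ATF6bKO the counts were 6 higher and 2 lower with a median of -0.04. Hspa5, which encodes BiP, the main ER chaperone of the Hsp70 family, had levels of 5.27, 4.89, 5.77 and 5.78 on ATF6aKO arrays, 5.67, 5.96, 6.72 and 6.7 on ATF6bKO arrays, and 5.96, 5.41, 5.35 and 6.04 on WT arrays. The ATF6aKO and WT ranges overlapped, and the difference of -0.26 did not pass (SE 0.22, adjusted p = 0.34). Against ATF6bKO, Hspa5 was lower in ATF6aKO by -0.83 (adjusted p = 0.0451). Hsp90b1, the ER form of Hsp90, was the member that was lower than in WT. Its levels were 5.47, 5.28, 5.36 and 5.48 on ATF6aKO arrays and 6.81, 5.95, 5.76 and 6.0 on WT arrays, which did not overlap (-0.73, SE 0.21, adjusted p = 0.0256). That call was lost without any 1 of 6 of the 8 arrays, and the value table gave -0.08.

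Calr, the calcium-binding lectin chaperone calreticulin, moved the other way. Its levels were 5.36, 4.91, 5.62 and 5.74 on ATF6aKO arrays, 4.0, 4.2, 4.73 and 4.93 on ATF6bKO arrays, and 4.19, 4.91, 4.5 and 4.7 on WT arrays. It was higher in ATF6aKO than in WT (0.83, SE 0.2, adjusted p = 0.0144) and than in ATF6bKO (0.94, adjusted p = 0.0267). Hyou1, a large Hsp70-like chaperone, had levels of 2.9, 2.72, 2.93 and 3.16 on ATF6aKO arrays and 1.46, 1.88, 2.64 and 3.17 on WT arrays. It was higher (0.64, SE 0.18, adjusted p = 0.0253), though the groups overlapped through a titled DSS array of WT. The other higher members were Ero1a, an oxidase that drives disulfide formation (0.54), Fkbp2, a prolyl isomerase (0.46), Sil1, an exchange factor of BiP (0.44), and Txndc11, a thioredoxin-domain protein (0.41), all with an adjusted p between 0.0231 and 0.0481. Hyou1, Sil1 and Txndc11 were also higher in ATF6bKO than in the same WT arrays, by 1, 0.43 and 0.46 (adjusted p = 0.00197, 0.024 and 0.0115, limma). Their differences between ATF6aKO and ATF6bKO were -0.36, 0 and -0.05 and did not pass. The differences of P4hb, Pdia4, Pdia6, Dnajb9, Dnajc3, Sdf2l1, Manf, Canx and Creld2 from WT ran from -0.3 to 0.47 and did not pass. The counts were fragile: without any 1 array, from 0 to 8 members were higher, the lowest without the UT replicate 1 array of ATF6aKO or the titled DSS replicate 1 array of WT.

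Some promoters of the chaperone genes carry the ER stress response element through which ATF6 acts, and 3 of these are shown because their genes fell on different sides of the test. The motif searched was CCAAT, then 9 bases of any kind, then CCACG, on both strands in the 250 bases before the RefSeq start, assembly GRCm38.p6. It was found in 8 of 18 chaperone genes with a promoter in the table (44.4%), against 35 of 27025 genes (0.13%). Capitals mark each match, read on the gene's strand. Hspa5 is at chr2:34771840-34772089, plus strand; Hsp90b1 is at chr10:86705445-86705694, minus strand, with 2 matches; Calr is at chr8:84846932-84847181, minus strand.
Hspa5: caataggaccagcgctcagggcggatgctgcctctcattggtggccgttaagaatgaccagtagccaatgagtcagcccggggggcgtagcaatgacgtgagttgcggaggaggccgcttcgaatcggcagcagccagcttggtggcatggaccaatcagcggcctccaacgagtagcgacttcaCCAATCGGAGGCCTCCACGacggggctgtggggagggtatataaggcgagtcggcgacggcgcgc
Hsp90b1: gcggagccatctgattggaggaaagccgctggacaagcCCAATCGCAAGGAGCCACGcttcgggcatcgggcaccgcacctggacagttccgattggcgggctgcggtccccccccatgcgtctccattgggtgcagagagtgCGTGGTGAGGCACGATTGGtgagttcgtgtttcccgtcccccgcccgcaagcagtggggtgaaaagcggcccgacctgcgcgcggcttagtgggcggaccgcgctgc
Calr: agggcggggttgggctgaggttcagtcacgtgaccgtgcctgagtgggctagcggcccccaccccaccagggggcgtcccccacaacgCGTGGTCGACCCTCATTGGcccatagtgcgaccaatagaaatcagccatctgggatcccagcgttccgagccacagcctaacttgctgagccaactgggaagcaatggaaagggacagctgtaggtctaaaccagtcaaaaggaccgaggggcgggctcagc
Of the 8 genes with the motif, Calr was higher, Hsp90b1 was lower and Hspa5, Canx, Pdia6, Dnajc3, Creld2 and Ero1b did not pass. Of the 10 without it, 3 were higher and 0 lower.

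**Figure D2:**
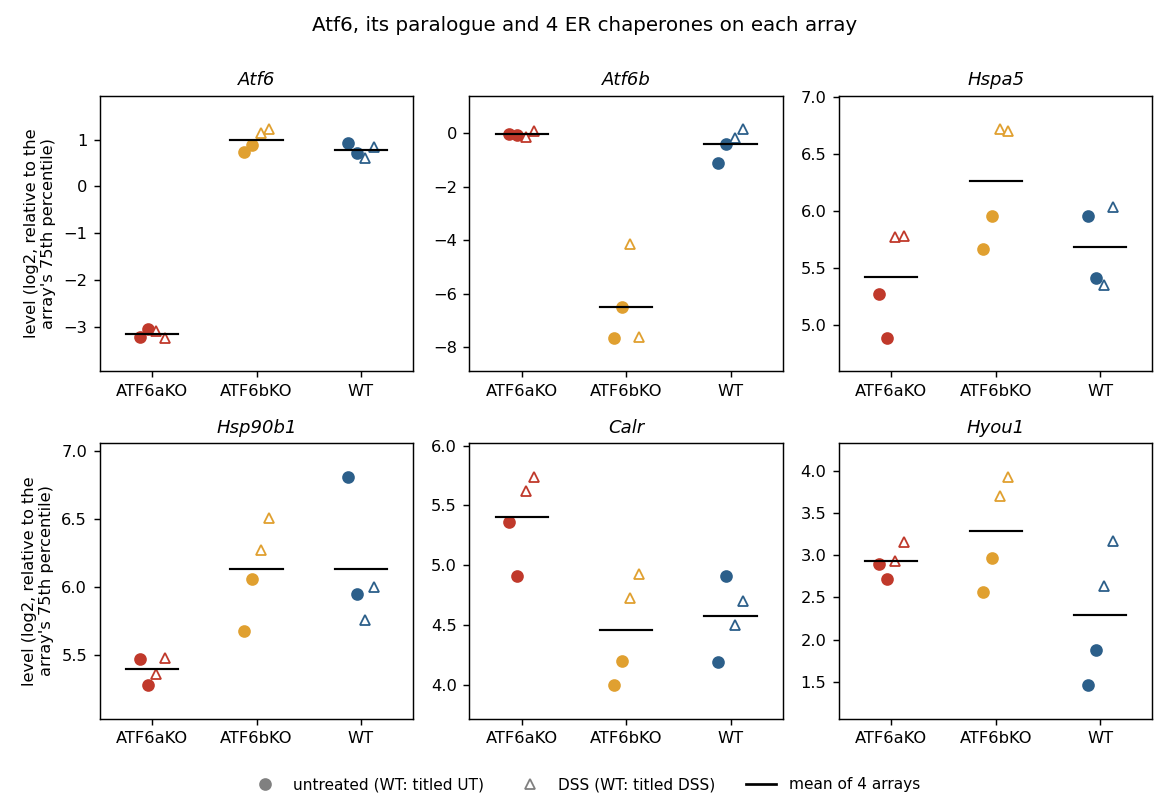
Each panel plots the log2 level of 1 gene on every array, ATF6aKO left, ATF6bKO in the middle and WT right, with circles for untreated or titled UT arrays, open triangles for DSS or titled DSS arrays and a line at the mean of the 4 arrays. Atf6 was lowest in ATF6aKO, at -3.23 to -3.04, and Atf6b in ATF6bKO, whereas Hspa5 overlapped between ATF6aKO and WT.

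Genes of ER-associated degradation, which extract misfolded proteins from the ER and hand them to the proteasome, were higher or did not pass. Of 23 tested, 9 were higher (39.1%, against 19.9% over all genes) and 0 lower, with a median of 0.31. Without a treatment term 1 was higher. For ATF6bKO 8 were higher and 1 lower, with a median of 0.04. Ube2j1, a ubiquitin-conjugating enzyme of the ER membrane, had levels of 2.74, 2.63, 2.82 and 2.68 on ATF6aKO arrays and 1.21, 1.5, 1.66 and 1.74 on WT arrays. The groups did not overlap (1.19, SE 0.14, adjusted p = 0.00106). Syvn1, the ubiquitin ligase Hrd1, had levels of 4.84, 4.77, 4.59 and 4.69 against 3.22, 3.23, 4.27 and 4.5 on WT arrays (0.92, SE 0.13, adjusted p = 0.00209), but only 1 of its 2 probes moved this way. Herpud1, a scaffold of the same complex, was higher by 0.63 (adjusted p = 0.0195) and Derl3, a channel component, by 0.85 (adjusted p = 0.0433). The call of Herpud1 was lost under 6 of the alternatives run and that of Derl3 under 10. With any 1 array left out, 2 to 13 members were higher, the fewest without the UT replicate 2 or DSS replicate 1 array of ATF6aKO and the most without the titled UT replicate 2 array of WT. Of 27 genes of the translocon and secretory transport, 1 was higher and 4 were lower, among them Sec62, a translocon subunit (-0.87, adjusted p = 0.00255), and Srp54a, of the signal recognition particle (-0.82, adjusted p = 0.00576). In the value table the 4 lower members kept their sign but did not pass.

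The targets of ATF4 and CHOP, which supply amino acids and serine-derived carbon and answer amino acid shortage, formed the pathway list with the largest share of higher genes. Of 29 tested, 19 were higher (65.5%, against 19.9% over all genes) and 2 were lower, and the median difference was 0.83. The mean level of the 29 genes ran from 0.85 to 1.42 on ATF6aKO arrays and from 0.25 to 0.43 on WT arrays. For ATF6bKO against the same WT arrays, 9 were higher and 3 lower, with a median of 0.2. In the direct comparison 13 of the 29 were higher in ATF6aKO than in ATF6bKO and 0 were lower, where 1.17% and 4.22% of all genes were. The list had 19 to 25 higher members under every scaling run, with 25 in the value table. With 1 treatment term by the titles 16 were higher and 2 lower. With exchanged WT labels 14 were higher and 1 lower, and without a treatment term 13 and 0.

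Chac1, an enzyme that breaks down glutathione and a marker of ATF4 and CHOP activity, stood clear of both other genotypes in ATF6aKO. Its levels were 3.16, 1.47, 2.51 and 2.69 on ATF6aKO arrays, -1.68, -1.02, -0.4 and 0.1 on ATF6bKO arrays, and -0.58, 0.03, -0.82 and -0.85 on WT arrays. All 4 ATF6aKO arrays lay above the other 8, whose ranges overlapped. The difference was 3.01 from WT (SE 0.36, adjusted p = 0.00114), 3.21 from ATF6bKO (adjusted p = 0.00526), and -0.2 between ATF6bKO and WT (adjusted p = 0.653). Trib3, a pseudokinase that restrains ATF4, had the same order. Its levels were -0.38, -1.71, -0.69 and -0.29 on ATF6aKO arrays, -3.12, -3.4, -2.27 and -2.17 on ATF6bKO arrays, and -2.83, -2.3, -2.77 and -3.12 on WT arrays. It was higher than in WT by 1.99 (SE 0.31, adjusted p = 0.00282) and than in ATF6bKO by 1.98 (adjusted p = 0.012).

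The amino acid transporters of the list rose as well. Slc7a11, which imports cystine, had levels of -1.99, -2.63, -1.69 and -1.38 on ATF6aKO arrays, -4.1, -3.17, -2.39 and -2.44 on ATF6bKO arrays, and -4.67, -4.8, -4.96 and -5.76 on WT arrays. It was higher than in WT by 3.13 (SE 0.24, adjusted p = 0.000336) and than in ATF6bKO by 1.1 (adjusted p = 0.0464), and it was well above background on 3 of the 4 WT arrays. Slc7a5, the light chain of the leucine transporter, was ordered the same way, with levels of -1.12, -1.07, -0.48 and -0.74 on ATF6aKO arrays, -2.66, -2.28, -2.11 and -2.0 on ATF6bKO arrays, and -4.08, -3.35, -3.08 and -2.73 on WT arrays. Its difference was 2.46 from WT (SE 0.2, adjusted p = 0.00041) and 1.41 from ATF6bKO (adjusted p = 0.0091). Slc3a2, the heavy chain shared by both transporters, was higher by 1.59 (adjusted p = 0.00587).

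Enzymes that make serine, glycine and asparagine or that carry folate-bound carbon were higher too. Asns, asparagine synthetase, had levels of 4.69, 3.78, 4.83 and 4.84 on ATF6aKO arrays, 2.9, 3.15, 3.93 and 3.99 on ATF6bKO arrays, and 3.43, 2.97, 3.32 and 3.54 on WT arrays. It was higher than in WT (1.22, SE 0.23, adjusted p = 0.00557) and than in ATF6bKO (1.04, adjusted p = 0.0281), with no overlap with WT. Psat1, of serine synthesis, was higher by 1.83 (adjusted p = 0.00447), Mthfd2, of mitochondrial folate metabolism, by 1.57 (adjusted p = 0.00411), Shmt2 by 1.17 (adjusted p = 0.00445) and Psph by 1.14 (adjusted p = 0.00175). Against ATF6bKO these 4 were higher by 1.63, 1.24, 0.8 and 0.65. Phgdh, the enzyme that starts serine synthesis, was higher by 0.86 (adjusted p = 0.0106), a call that was lost with a single treatment term under either reading of the WT labels.

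Some targets of the list did not follow. Nupr1, a stress-induced chromatin protein, was lower, at 5.52, 4.82, 6.01 and 5.81 on ATF6aKO arrays against 8.38, 7.46, 6.27 and 6.19 on WT arrays (-1.54, SE 0.25, adjusted p = 0.00334). Cth, which makes cysteine from cystathionine, was lower by -1.34 (adjusted p = 0.00177). Atf3 (0.13), Vldlr (0.14), Ppp1r15a (0.39), Stc2 (0.11), Cebpg (-0.03), Wars (0.17), Bbc3 (-0.12) and Aldh18a1 (0.72) did not pass. Fgf21, a secreted hormone that ATF4 induces, was higher by 2.36 (adjusted p = 0.0147), but it was well above background on 3 of 4 ATF6aKO arrays and on 0 of 4 WT arrays, so the ratio is at least 1.02-fold. Here and below, "at least" sets the mean of the bright genotype against the floor of the dim one, which is, per array, the higher of the probe's own value and the lowest signal marked well above background. Adm2, the peptide hormone intermedin and a gene outside the list, was higher in ATF6aKO. Its levels were -3.99, -5.97, -3.85 and -3.64 on ATF6aKO arrays, -8.08 to -7.73 on ATF6bKO arrays, and -8.06, -8.95, -9.01 and -8.01 on WT arrays. It was well above background on all 4 ATF6aKO arrays and on no ATF6bKO or WT array, and was at least 3.53-fold higher in ATF6aKO than in WT (adjusted p = 0.000978).

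A pair of neighbouring gene families was examined after the values of the list had been seen. Of 20 cytosolic aminoacyl-tRNA synthetases, 3 were higher (Nars, Sars and Cars, by 0.45 to 0.89) and 2 lower (Dars by -0.95 and Rars by -0.67), with a median of 0.14. The calls of Sars and Cars were lost with a single treatment term under either reading, without a treatment term and without the filter. That of Dars was lost with exchanged WT labels or no treatment term. Of 23 amino acid transporters, several of which are also in the list above, 10 were higher and 4 lower, with a median of 0.54, and 4 were higher than in ATF6bKO. Slc7a3, an arginine and lysine carrier, had levels of -2.98, -2.86, -2.77 and -3.07 on ATF6aKO arrays, -4.13 to -3.65 on ATF6bKO arrays, and -4.24, -3.79, -3.63 and -4.08 on WT arrays, so that ATF6aKO lay above both (1.02 from WT, adjusted p = 0.00455). Slc3a1, which forms the cystine and dibasic amino acid transporter of brush borders, was the largest lower member (-3.75, SE 0.41, adjusted p = 0.000922).

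The amino acid response element TGATGNAA, to which ATF4 binds with a partner, was searched in the same way. It was found in 7 of 26 list genes with a promoter in the table (26.9%), against 1056 of 27025 genes (3.91%). Of the 7, Chac1, Slc7a11, Asns and Fgf21 were higher, Nupr1 was lower, and Atf3 and Vldlr did not pass. Of the 19 without a match, 14 were higher and 0 lower. The promoters of 3 of the higher genes are shown, with matches in capitals. Chac1 is at chr2:119350992-119351241, plus strand; Slc7a11 is at chr3:50443614-50443863, minus strand, with 2 matches; Asns is at chr6:7693210-7693459, minus strand.
Chac1: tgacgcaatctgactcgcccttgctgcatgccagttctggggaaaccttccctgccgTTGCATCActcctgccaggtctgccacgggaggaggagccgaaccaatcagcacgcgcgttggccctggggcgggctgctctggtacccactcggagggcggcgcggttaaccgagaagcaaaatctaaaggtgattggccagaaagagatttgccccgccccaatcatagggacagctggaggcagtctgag
Slc7a11: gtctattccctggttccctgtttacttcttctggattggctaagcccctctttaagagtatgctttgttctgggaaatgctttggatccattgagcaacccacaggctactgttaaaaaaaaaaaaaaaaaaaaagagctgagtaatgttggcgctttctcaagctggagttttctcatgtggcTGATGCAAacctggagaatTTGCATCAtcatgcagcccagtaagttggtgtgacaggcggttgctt
Asns: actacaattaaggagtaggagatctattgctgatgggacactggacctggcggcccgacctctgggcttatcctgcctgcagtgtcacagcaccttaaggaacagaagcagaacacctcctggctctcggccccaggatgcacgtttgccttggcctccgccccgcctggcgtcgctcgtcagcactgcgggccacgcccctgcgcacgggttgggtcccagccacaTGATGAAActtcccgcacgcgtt
A match is a description of these letters and not of binding, and no match says only that these letters are not in this window.

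**Figure D3:**
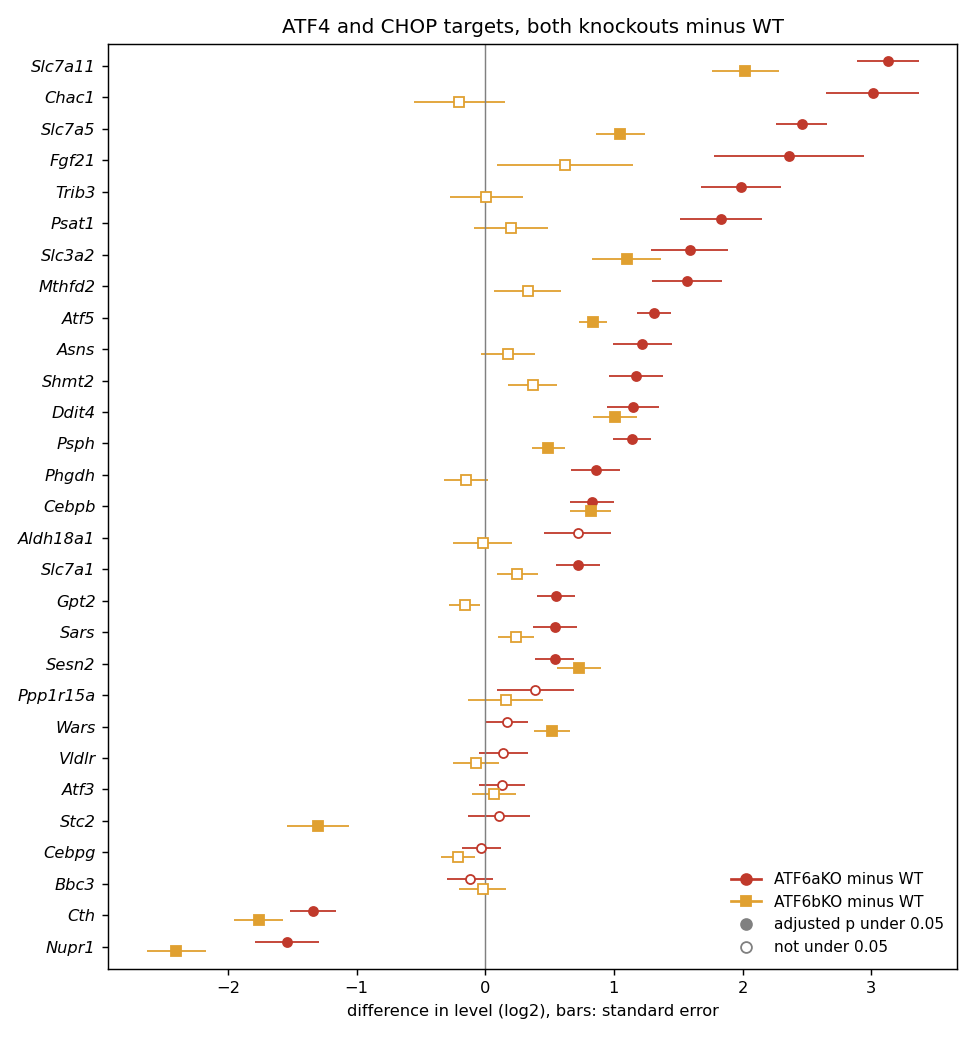
For each of the 29 ATF4 and CHOP targets the plot gives the log2 difference from WT in ATF6aKO (circles) and in ATF6bKO (squares) with its standard error, filled where the adjusted p is under 0.05. Both sets of differences use the same 4 WT arrays. Slc7a11 at 3.13 and Chac1 at 3.01 lie farthest to the right in ATF6aKO, whereas Chac1 and Trib3 in ATF6bKO lie near 0.

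The largest higher differences included proteases of mast cells. Mcpt4, a mast cell chymase, had levels of 3.02, 2.58, 3.97 and 4.05 on ATF6aKO arrays, 1.49, 1.24, 2.29 and 3.01 on ATF6bKO arrays, and -3.39, -3.27, -3.54 and -1.79 on WT arrays. Both knockouts lay far above WT, by 6.4 for ATF6aKO (SE 0.36, adjusted p = 0.000171) and by 5.0 for ATF6bKO. Its relatives Mcpt1 (6.52), Mcpt2 (6.33), Mcpt9 (at least 44.8-fold) and Cma2 (6.68) and the mast cell carboxypeptidase Cpa3 (4.06) did the same. Of 10 mast cell markers, 7 were higher and 0 lower, with a median of 2.81. The chymase genes are close relatives, and how far their probes bind each other's transcripts was not tested. Other large differences were Syt10, a synaptotagmin (6.85), Kcnj16, a potassium channel (5.2), Retnlg, a resistin-like hormone (4.39), Ces1c, a carboxylesterase (4.3), and Casp14, a caspase of cornifying epithelium (3.94). Mcpt2, Kcnj16, Retnlg and Casp14 were well above background on 3 of the 4 WT arrays. Gp1ba, a platelet receptor, was at least 4.11-fold higher (adjusted p = 0.000171). Grn, which encodes progranulin, had levels of 8.41 to 9.09 on ATF6aKO arrays and of 1.53, 5.95, 4.55 and 6.07 on WT arrays, with the WT arrays widely spread (4.21, SE 0.88, adjusted p = 0.00827).

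Genes of the epithelium were among the large lower differences, several of them near the floor of the arrays in ATF6aKO. Reg3b, an antimicrobial lectin of epithelial cells, had levels of -7.41, -8.08, -4.95 and -4.72 on ATF6aKO arrays, -7.65, -8.06, -2.83 and -7.62 on ATF6bKO arrays, and 3.82, 3.49, 3.93 and 4.24 on WT arrays. It was well above background on 2 of 4 ATF6aKO arrays and on all 4 of WT, and the fitted difference was -10.16 (SE 0.2, adjusted p = 3.92e-06), whose size is uncertain for that reason. The related Reg3g, well above background on 3 of 4 ATF6aKO arrays, differed by -5.85 (adjusted p = 0.00114). The glucuronosyltransferases Ugt2b5 (-6.97), Ugt2b36 (-6.07), Ugt2b37 (-5.65) and Ugt2b38 (-5.9), close relatives of each other, were lower together. The first 3 were well above background on 1 of 4 ATF6aKO arrays and Ugt2b38 on 2, so these sizes are uncertain too. Also lower were Prap1, an epithelial secreted protein (-4.8), Slc13a1, a sulfate carrier (-4.69), Kcne2, a potassium channel subunit (-4.84), and Nts, the peptide neurotensin (-4.21), with Slc13a1 and Kcne2 well above background on 2 of 4 ATF6aKO arrays. Adam18, a gene known from sperm, was at least 22.4-fold lower (adjusted p = 0.00041).

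ATF6bKO was compared with the same WT arrays, so its values are no independent repeat. Its differences were -4.72 for Prap1, 6.45 for Kcnj16 and 3.69 for Casp14. Squamous genes were higher on the ATF6bKO DSS arrays, as given above, and their part in the Casp14 value was not tested. Reg3b was well above background on 1 of 4 ATF6bKO arrays and Ugt2b5 on 0, so no size is given for them. H2-T3, a class I molecule of the T region that the gut epithelium displays, differed between the knockouts. Its levels were -6.53, -7.67, -7.19 and -8.18 on ATF6aKO arrays, -4.27, -3.45, -2.86 and -1.7 on ATF6bKO arrays, and -1.82, -1.06, -2.07 and -1.77 on WT arrays. It was at least 20.7-fold lower in ATF6aKO than in WT (adjusted p = 0.000189), lower than in ATF6bKO with no overlap (adjusted p = 0.0031), and lower by -1.39 in ATF6bKO than in WT (adjusted p = 0.0163). It was not well above background on any ATF6aKO array, so no size is given for its difference from ATF6bKO.

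**Figure D4:**
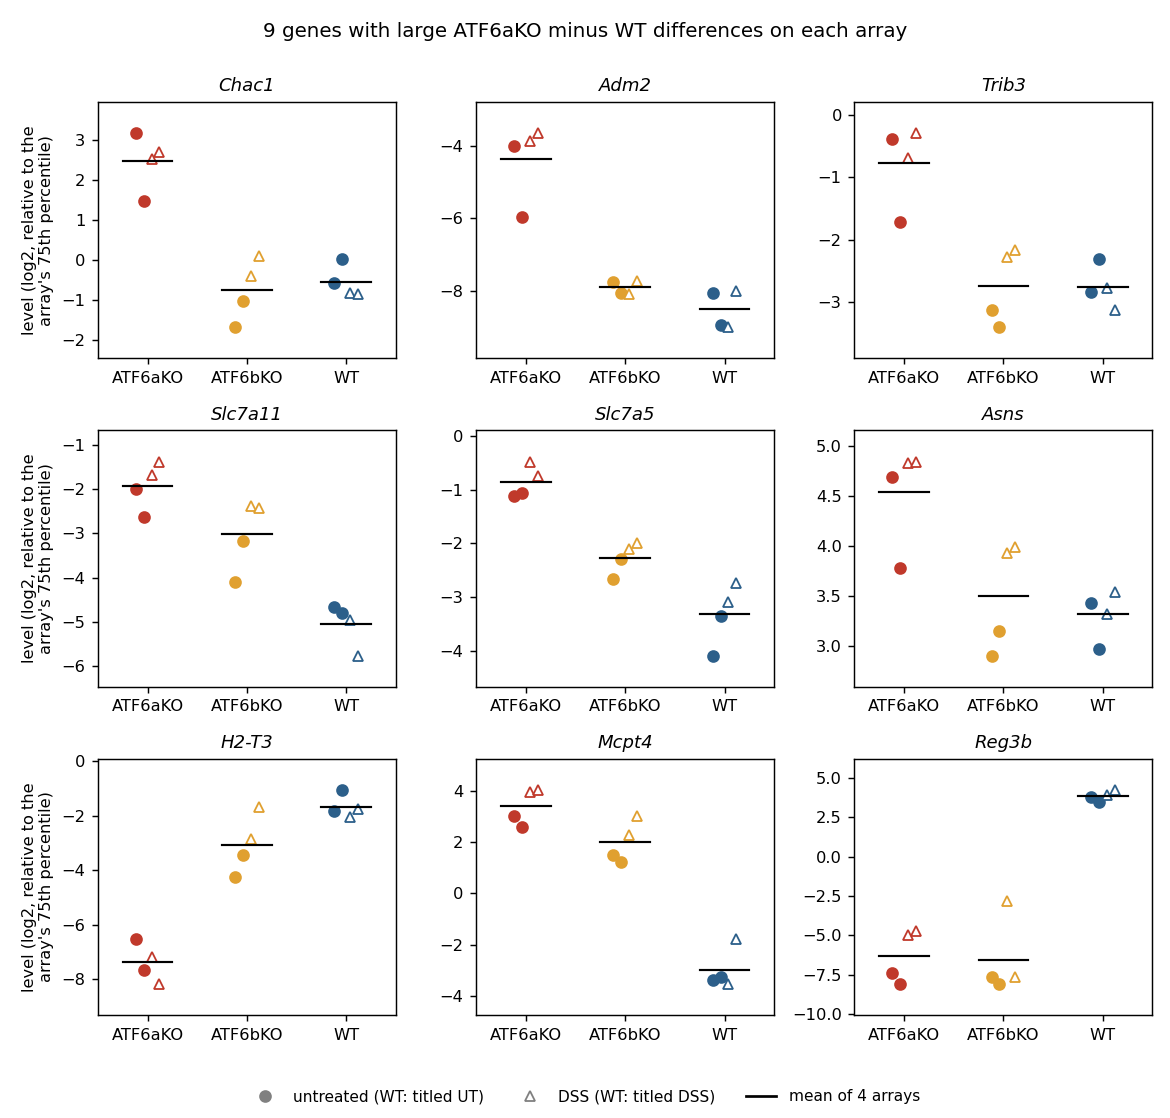
Each panel plots the log2 level of 1 gene on every array, ATF6aKO left, ATF6bKO in the middle and WT right, with the symbols of the chaperone plot. Chac1, Adm2 and Trib3 were high in ATF6aKO and low in both others, Mcpt4 was high and Reg3b low in both knockouts, and H2-T3 was lowest in ATF6aKO, at -8.18 to -6.53.

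Marker genes of macrophages, fibroblasts and vessels were higher in ATF6aKO in shares above the background. In bulk RNA, more cells of a type and more RNA per cell cannot be told apart. Of 20 monocyte and macrophage markers 11 were higher and 0 lower (55%, against 19.9% over all genes), with a median of 0.84, and their mean level was 0.74 to 2.1 on ATF6aKO arrays and 0.19 to 0.84 on WT arrays. C1qc, a complement chain made by macrophages, had levels of 3.11, 3.01, 4.38 and 3.91 on ATF6aKO arrays against 2.3, 2.24, 2.16 and 1.49 on WT arrays (1.56, SE 0.2, adjusted p = 0.00138), and Csf1r, the receptor for macrophage growth factor, was higher by 1.51 (adjusted p = 0.00391). Of 19 fibroblast and matrix genes 10 were higher and 2 lower, led by the collagen gene Col1a1, which had levels of 3.77, 3.71, 4.77 and 4.37 on ATF6aKO arrays and 1.37, 0.72, 2.79 and 2.61 on WT arrays (2.28, SE 0.19, adjusted p = 0.000413). Of 15 endothelial genes 6 were higher and 0 lower. With 1 array left out, 6 to 14 fibroblast and 3 to 9 endothelial genes were higher, the fewest of both without ATF6aKO UT replicate 1, ATF6aKO DSS replicate 1 or WT titled DSS replicate 2. The most were without WT titled UT replicate 1 for fibroblasts and replicate 2 for vessels. With 1 treatment term and exchanged WT labels 4 and 2 were higher. The medians of the macrophage, fibroblast and endothelial lists were 0.84, 0.68 and 0.52 in ATF6aKO and 0.87, 0.73 and 0.52 in ATF6bKO, with the same WT arrays in both. The directions of these 3 medians and of the mast cell median held in all scalings run.

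B and plasma cell genes were higher in ATF6aKO in a share near that of all genes. Of 17, 4 were higher (23.5%, against 19.9% over all genes) and 1 was lower in ATF6aKO with a median of 1.03, and 0 were higher and 1 lower in ATF6bKO with a median of -0.28. The ATF6aKO median was 0.58 after normexp and 0.48 without ATF6aKO UT replicate 2. In the direct comparison 1 of the 17, Cd79a, was higher in ATF6aKO than in ATF6bKO. Mzb1, an ER chaperone of antibody-secreting cells, had levels of 2.63, 2.79, 2.6 and 1.73 on ATF6aKO arrays, 0.12, 0.99, 1.97 and 2.07 on ATF6bKO arrays, and 1.55, 1.16, 0.47 and -0.46 on WT arrays. It was higher than in WT by 1.76 (SE 0.28, adjusted p = 0.00297), and the difference from ATF6bKO, 1.15, did not pass (adjusted p = 0.055). Cd79a, a chain of the B cell receptor, was higher than in WT (1.3, adjusted p = 0.02) and than in ATF6bKO (1.58, adjusted p = 0.0443), where it was well above background on 2 of 4 arrays. Its call against WT was lost without ATF6aKO UT replicate 2, ATF6aKO DSS replicate 1, WT titled UT replicate 1 or WT titled DSS replicate 2. The mean level of the 17 genes ran from -1.61 to -0.1 on ATF6aKO arrays and from -1.99 to -0.97 on WT arrays. Plasma cells are rich in ER chaperones, and their part in the chaperone and degradation lists was not tested.

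Genes of nerves and hormone cells were lower more often than higher. Of 12 genes of enteric neurons and glia 0 were higher and 6 lower, with a median of -0.47, which turned to 0.19 in the value table as deposited, where the median of all genes was 0.573. The lower calls numbered 3 without any 1 of the ATF6aKO arrays or without WT titled DSS replicate 2, and 2 with exchanged WT labels or no treatment term. Snap25, of synaptic vesicle fusion, had levels of -1.46, -1.35, -0.91 and -1.12 on ATF6aKO arrays and -0.35, -0.53, 0.06 and 0.02 on WT arrays (-1.01, SE 0.13, adjusted p = 0.00162). Of 18 enteroendocrine genes 2 were higher and 8 lower, with a median of -0.45 (0.2 in the value table). Among them, Pcsk1, which processes prohormones, was lower by -1.62 (adjusted p = 0.000627) and Cck, the hormone cholecystokinin, by -1.57 (adjusted p = 0.00218). Of 17 goblet cell genes 5 were higher and 3 lower, with a median of -0.01. Fcgbp, a mucus protein, was higher, at 8.93, 9.04, 9.24 and 9.28 on ATF6aKO arrays against 7.96, 7.82, 8.3 and 8.58 on WT arrays (0.96, SE 0.14, adjusted p = 0.0021). Of 23 absorptive colonocyte genes 6 were higher and 9 lower, with a median of -0.31 (0.34 in the value table).

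**Figure D5:**
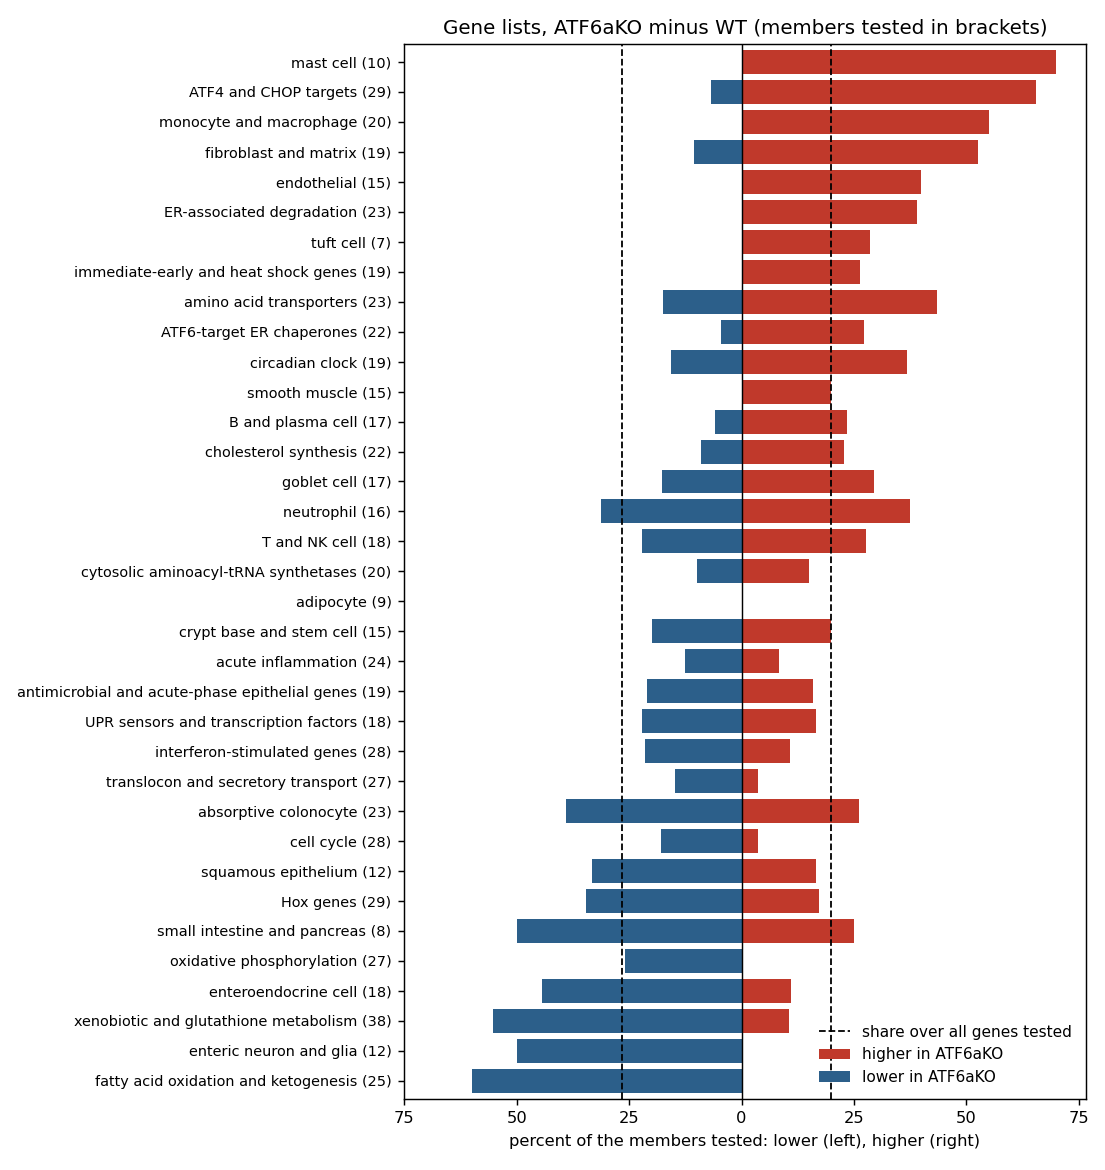
Bars give, for each gene list, the percent of its tested members that were higher (to the right) or lower (to the left) in ATF6aKO than in WT at an adjusted p under 0.05, and dashed lines mark the shares over all genes, 19.9% higher and 26.5% lower. The mast cell, ATF4 and macrophage lists reach farthest right, and the fatty acid oxidation and xenobiotic lists reach far to the left.

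Metabolic genes of the epithelium were lower in numbers above the background. Of 38 genes of xenobiotic and glutathione metabolism 21 were lower (55.3%, against 26.5% over all genes) and 4 higher, with a median of -0.9 in ATF6aKO and -0.93 in ATF6bKO. Ces1f, a carboxylesterase, had levels of -0.05, 0.97, -2.84 and -0.6 on ATF6aKO arrays and 3.24, 3.41, 1.63 and 2.07 on WT arrays (-3.22, SE 0.48, adjusted p = 0.00253). Cyp1a1, a cytochrome induced through the aryl hydrocarbon receptor, went the other way and was at least 2.99-fold higher (adjusted p = 0.00183). Of 25 genes of fatty acid oxidation and ketogenesis 15 were lower (60%) and 0 higher, with a median of -0.53, which was -0.42 in the value table after its columns were centred and 0.13 before. Fabp2, the fatty acid binding protein of enterocytes, had levels of 5.61, 4.21, 3.51 and 3.67 on ATF6aKO arrays, 3.72, 4.48, 3.78 and 3.95 on ATF6bKO arrays, and 8.95, 8.24, 6.48 and 6.8 on WT arrays. The ATF6aKO arrays lay below all WT arrays, with a difference of -3.37 (SE 0.32, adjusted p = 0.000625). Of 27 genes of oxidative phosphorylation 7 were lower (25.9%, close to the 26.5% over all genes) and 0 higher (against 19.9%). Of 22 genes of cholesterol synthesis 5 were higher and 2 lower.

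Few inflammatory genes passed. Of 24 genes of acute inflammation 2 were higher and 3 lower, with a median of 0. Of 28 interferon-stimulated genes 3 were higher and 6 lower, with a median of -0.16 (0.5 in the value table), whereas 14 were higher and 0 lower in ATF6bKO, with a median of 0.59. In the direct comparison 15 of the 28 were lower in ATF6aKO than in ATF6bKO, where 4.22% of all genes were. Zbp1, a sensor of left-handed nucleic acid, had levels of 1.12, 0.96, 2.43 and 2.03 on ATF6aKO arrays, 1.48, 2.18, 4.37 and 4.37 on ATF6bKO arrays, and -0.24, -0.32, 0.99 and 1.42 on WT arrays. It was higher than in WT (1.17, adjusted p = 0.00211) and lower than in ATF6bKO (-1.46, adjusted p = 0.0088). Its call against WT was lost with exchanged WT labels and 1 treatment term, and without a treatment term. Ifit2, an interferon-induced RNA-binding protein, was lower in ATF6aKO than in WT (-1.67, SE 0.21, adjusted p = 0.00136) and than in ATF6bKO (-1.35, adjusted p = 0.0114).

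Hox genes, which mark position along the gut, passed in shares near those of all genes. The stretch of colon taken is not stated, and its part in the epithelial results was not tested. Of 29 Hox genes, a family examined after its values had been seen, 5 were higher (17.2%, against 19.9%) and 10 lower (34.5%, against 26.5%), with a median of -0.34 (0.1 after normexp and 0.32 in the value table). Hoxd13, which marks the hindmost gut, had levels of 2.02, 2.79, 1.81 and 2.22 on ATF6aKO arrays, 2.86, 2.42, 2.41 and 2.1 on ATF6bKO arrays, and -1.55, -2.25, -1.27 and -1.09 on WT arrays. It was higher by 3.75 (SE 0.24, adjusted p = 0.000225), as were Hoxd11 (3.11), Hoxd10 (2.51) and Hoxb13 (1.1). Hoxb7 (-1.73), Hoxb6 (-1.31), Hoxa9 (-1.21) and Hoxa10 (-0.89) were lower. Of 8 genes of small intestine and pancreas 2 were higher and 4 lower (3 and 2 after normexp). Sis, the sucrase of small bowel enterocytes, had levels of -5.82, -5.3, -6.72 and -5.54 on ATF6aKO arrays and -2.84, -3.45, -4.42 and -4.8 on WT arrays (-1.97, adjusted p = 0.00269), with a difference of -0.19 that did not pass after normexp.

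Some genes on chromosome 1 around Atf6 passed. Within 50 annotated genes to each side 28 were tested, and 8 of them passed (28.6%, against 46.4% over all genes), 5 higher and 3 lower. The shares were not tested against each other, and their order turned with the scaling: 13 of the 28 passed after normexp, against 9610 of 23244 genes, and 20 in the value table, against 13997 of 22998. With 1 array left out 4 (without ATF6aKO UT replicate 1) to 12 (without WT titled UT replicate 2) passed. The largest was Nr1i3, a nuclear receptor 48 genes after Atf6, which was higher by 1.6 (SE 0.21, adjusted p = 0.0017) and by 3.59 in ATF6bKO. Ddr2, a collagen receptor 12 genes before Atf6, had levels of 0.94, 0.84, 1.5 and 1.26 on ATF6aKO arrays, 2.11, 2.02, 2.47 and 2.54 on ATF6bKO arrays, and 2.34, 1.8, 2.51 and 2.47 on WT arrays. It was lower than in WT (-1.15, SE 0.16, adjusted p = 0.00217) and than in ATF6bKO (-1.15, adjusted p = 0.00818), while ATF6bKO and WT differed by 0.0. Of its 2 probes 1 moved this way, and the mean of both did not pass. Of 7 genes that vary between inbred strains, 1 was higher and 1 lower.

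Whether the genotype difference depended on DSS could not be settled, because the WT labels conflict. Read by the titles, the difference between ATF6aKO and WT depended on treatment for 158 of 23244 genes (0.68%), where 6243 had an unadjusted p under 0.05. Read with the WT treatment labels exchanged, it did so for 5061 genes (21.8%). For Chac1 the change was 0.84 by the titles (adjusted p = 0.47) and -0.27 with exchanged labels (adjusted p = 0.806), and neither passed.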

How the data were processed

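RNA from the colon of 12 samples was hybridised to 12 Agilent arrays with 1 dye. The arrays were scanned and quantified with Agilent Feature Extraction 10.7.1.1, per the submitters' processing notes. Deposited scanner files hold a processed intensity per spot, from which background and a spatial trend had been subtracted, raw median intensities, and other marks such as "well above background", per the file headers. The deposited value table of the authors holds log2 values centred on each probe. Its scaling between arrays is not given, its 4 WT columns hold the arrays of the other WT group and its ATF6aKO columns those of the other replicate. It served as an alternative only, each column being read as the array that holds the same values. Column medians of that table are not centred, and its difference between genotypes over all genes has a median of 0.573.

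Control spots and 54 to 108 outlier spots per array were left out, which left 41174 probes. The 75th percentile of the processed signal was 449.4 to 619.7 on ATF6aKO arrays and 686.4 to 1186.3 on WT arrays. The number of arrays limits the precision. Probes well above background on both arrays of at least 1 of the 6 groups were kept (30428), and the brightest probe stood for its gene. Accessions named 25182 probes (61.2%) through a RefSeq table of assembly GRCm38.p6, and 14589 of the 23244 genes and transcripts tested had a symbol. Promoter sequences are RefSeq's, of the same assembly.

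Differences were tested two-sided with limma 3.58.1 (lmFit, eBayes) in R 4.3.3 on 4 group means of 8 arrays, with 4 residual degrees of freedom, and adjusted by Benjamini and Hochberg over all genes at 0.05. ATF6bKO contrasts used the 12 arrays together, with 6 group means. The fit was tested on simulated data. Named genes were the sensors and chaperones, in each direction up to 15 genes with the largest called difference of at least 1, no overlap and signal well above background, up to 4 called genes per list, and called genes within 50 genes of Atf6; in a list with no call, the 2 with the smallest p. The other genes of the ATF4, amino acid and Hox lists, the other Atf6 probe, Aqp8 and Myh11 are given as list or marker values. Results for a few named genes are not reported here. The members and gene lists were chosen with earlier results of these data known. The alternatives were other background corrections, normalizations, filters, treatment terms and probe summaries, a replicate block and leaving out each array. Normexp used the median signals with an offset of 50.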

Additional observations from a re-analysis of the deposited data

Results flagged for a closer look

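Spike-in probes measure added RNA and enter no comparison of the genotypes, and 8 of them lay above every WT array on every ATF6aKO array. Their lowest levels among the 4 ATF6aKO arrays were 8.54 for (+)E1A_r60_1, 6.77 for (+)E1A_r60_n9, 5.75 for (+)E1A_r60_n11, 3.83 for (+)E1A_r60_a97, 1.88 for (+)E1A_r60_a22, -0.05 for (+)E1A_r60_a20, -1.34 for (+)E1A_r60_a135 and -4.49 for (+)E1A_r60_a107. The highest WT levels of the same probes were 3.67, 1.96, 0.57, -1.17, -2.96, -4.21, -6.45 and -7.13. The level of (+)E1A_r60_3 lay lower on all ATF6aKO arrays (-8.17 to -7.99) than on all WT arrays (-7.54 to -6.96).

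The difference between genotypes depended on treatment for Kcne2, a potassium channel subunit, under both readings of the WT labels. Its levels were -2.96, -3.33, -8.37 and -8.29 on ATF6aKO arrays (UT, UT, DSS, DSS) and 0.39, -0.24, -1.71 and -2.0 on WT arrays (titled UT, titled UT, titled DSS, titled DSS). The change of the difference with treatment was -3.25 by the titles (adjusted p = 0.0413) and -7.12 with exchanged labels (adjusted p = 0.00262, limma). The probe was well above background on 2 of 4 ATF6aKO arrays, so the size of the change on the DSS arrays has only a bound. The genes past the threshold under each reading, 158 and 5061, are counted above and were not each examined. Groups of 2 arrays are too small for a test of the gap between 1 array and the others of its group. The effect of leaving out each array is given with the processing.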

How the results depend on the processing

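The call of all genes and of the lists depended on the treatment term, the scaling and single arrays. With 1 treatment term by the titles, 2 chaperones, 5 degradation genes, 7 macrophage genes and 4 neighbours of Atf6 passed. With exchanged WT labels 5777 genes passed (2167 higher, 3610 lower), with 1, 3, 7 and 4 in the same lists. Without a treatment term 4969 passed (1801 higher, 3168 lower), with 1, 1, 6 and 3 in those lists, 12 lower xenobiotic genes and 9 lower fatty acid genes. Normexp gave 3729 lower genes and 13 neighbours, and no filter gave 3 chaperones and 5 degradation genes. The value table gave 12127 higher and 1870 lower genes, 18 chaperones, 22 degradation genes, 17 macrophage genes, 20 neighbours, 13 lower xenobiotic genes and 3 lower fatty acid genes; with its columns centred, 5429 were higher and 5162 lower. Leaving out 1 array gave 7381 (without ATF6aKO DSS replicate 1) to 14109 genes (without WT titled UT replicate 2), 3115 to 6273 higher and 4266 to 7836 lower, 15 to 21 ATF4 targets, 0 to 8 chaperones, 2 to 13 degradation genes, 7 to 8 mast cell genes, 7 to 12 macrophage genes, 19 to 24 lower xenobiotic genes, 8 to 18 lower fatty acid genes and 4 to 12 neighbours.

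Differences that turned round after normexp included Osm (0.1), Chat (0.2), Krt10 (0.03), Krt4 (0.37), Prss2 (0.08), Slc38a3 (0.06), Slc38a4 (0.06) and Hoxd12 (0.23), and with a strict filter Osm (0.25). In the value table they were Eif2ak3 (0.64), Ddit3 (0.05), Canx (0.46), Pdia4 (0.58), Pdia6 (0.56), Ppib (0.48), Tmed2 (0.45), Rgs5 (0.02), S100b (0.16), Cebpg (0.63), Gars (0.59), Tars (0.43), Slc7a6 (0.61), Slc43a1 (0.65), Hoxa11 (0.07) and Hoxa4 (0.56), where the median over all genes was 0.573. The cause was not tested. With exchanged WT labels 5 enteroendocrine, 2 interferon-stimulated and 3 oxidative phosphorylation genes were lower, and 2 circadian and 2 neutrophil genes higher. Of 155 called genes named by the rule, 72 passed under every alternative run for them and 117 whichever array was left out. The labels do not pair the replicates, whose deviations correlated at -0.002 to 0.15. With the replicate number as a block, 10608 genes passed. The counts of higher ATF4, chaperone, degradation, mast cell and macrophage genes and lower xenobiotic and fatty acid genes moved by at most 1.5 times.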

Other observations

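The remaining marker lists moved in both directions or near the background shares of 19.9% higher and 26.5% lower. Of 16 neutrophil genes 6 were higher and 5 lower (9 and 0 after normexp). Retnlg was among the largest higher differences, and Cxcr2, a chemokine receptor of neutrophils, was at least 1.67-fold higher (adjusted p = 0.0016, limma). Of 18 T and NK cell genes 5 were higher and 4 lower (8 and 1 after normexp). Gzmb, the protease granzyme B, was higher by 1.51 (adjusted p = 0.00447), and Klrd1, a receptor of NK cells, was lower by -1.57 (adjusted p = 0.002). Ifng, the cytokine interferon gamma, was lower than in WT by -2.68 (adjusted p = 0.00452), with levels of -7.88, -8.27, -5.56 and -6.42 on ATF6aKO arrays and -3.87, -4.94, -3.3 and -5.31 on WT arrays, but it was well above background on 1 of the 4 ATF6aKO arrays and differed by -0.23 after normexp, which did not pass. Of 15 smooth muscle genes 3 were higher and 0 lower, of 7 tuft cell genes 2 and 0, and of 15 genes of the crypt base 3 and 3. Axin2, a Wnt target of the crypt, was higher by 1.21 (adjusted p = 0.0102), a call that was lost with a single treatment term.

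Among the other pathway lists, 3 of 19 antimicrobial and acute-phase genes were higher and 4 lower. Reg4, a lectin of secretory cells, was higher, with levels of 7.78, 7.67, 5.65 and 6.02 on ATF6aKO arrays and 5.87, 4.91, 1.94 and 2.14 on WT arrays (3.07, SE 0.23, adjusted p = 0.000332), while its relatives Reg3b and Reg3g were lower. Of 19 circadian genes 7 were higher and 3 lower, among the lower Nr1d2, a nuclear receptor of the clock (-1.88, adjusted p = 0.00226); the hour of collection is not stated. Of 19 immediate-early and heat shock genes 5 were higher and 0 lower, led by Fosb (2.02, adjusted p = 0.00158). Of 28 cell cycle genes 1 was higher and 5 lower. Of 4 sex-linked genes 3 were lower (75%, against 26.5% over all genes). These were Eif2s3y (-1.23), Ddx3y (-0.67) and Kdm5d (-0.67), all of the Y chromosome and all well above background on every array. The number lower was 3 after normexp and in the value table with its columns centred, and 0 in the value table as deposited. With 1 treatment term by the titles 2 were lower, and with exchanged WT labels or no treatment term 1. Ddx3y lost its call with 1 treatment term under either reading, and Kdm5d with exchanged labels.

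Olfactory receptors, a family that colon is not known to use and that was examined after the values were seen, were lower in large numbers. Of 885 with a named probe, 278 were tested. Of these, 220 were lower (79.1%) and 8 higher, with a median of -1.61. Probes were kept if well above background on both arrays of at least 1 group. A dim gene could thus enter through the genotype where it was bright. Without that filter 333 were lower and 7 higher, with a median of -0.54. With only probes well above background on all 8 arrays, 54 were lower and 4 higher, with a median of -0.79. With the filter used elsewhere, normexp gave 17 lower and 8 higher, and the median was 0.04. The mean level of the 278 genes lay from -6.2 to -5.91 on ATF6aKO arrays and from -4.72 to -4.15 on WT arrays, near the bottom of the measured range. The cause was not tested.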
